A study of Homo sapiens with 8 samples.

Results

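The 10 genes described here are the 5 NF-κB subunits NFKB1, NFKB2, REL, RELA and RELB, the NF-κB regulators NFKBIA, TNFAIP3 and BCL3, and the related genes TNFAIP8 and TNFAIP8L2. They were taken by symbol out of 64252 genes, all 10 were present in the tables of both cell lines, and all 10 passed the filter on low counts in both knockdown comparisons. They were selected on knockdown values of these same libraries, so their changes on LDB1 knockdown are given as a description with a standard error and without a test. The RNA came from the human T-cell acute lymphoblastic leukemia (T-ALL) lines 6T-CEM, a derivative of CCRF-CEM, and J.gamma1, a derivative of Jurkat. Cells of every group were transduced with a pLKO.1 lentivirus and selected with puromycin. The virus carried a control shRNA in the sh-NC groups and an LDB1-directed shRNA in the sh-LDB1 groups, with 2 libraries for each line and shRNA, 8 in all. Which LDB1 shRNA the sequenced cells carried is not named in the sources used here, and each condition rests on a single cell line. The labels do not say whether replicates came from separate cultures, so the error given here is the spread between libraries, which may be technical.

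NF-κB is a family of transcription factors that act as dimers of REL-homology proteins. NFKB1 and NFKB2 encode precursors that are processed to p50 and p52, whereas RELA, RELB and REL carry the transactivation domain. In resting cells the dimers are held in the cytoplasm by IκB proteins such as the product of NFKBIA, and signals from the T-cell receptor or TNF receptors trigger IκB degradation through the IκB kinase complex. TNFAIP3 (A20) is a ubiquitin-editing enzyme that damps this signal, and BCL3 is a nuclear IκB protein that binds p50 and p52. TNFAIP8 and TNFAIP8L2 (TIPE2) belong to a small family of lipid-binding proteins, of which TNFAIP8L2 is known as a restraint on immune signaling. LDB1 is a nuclear adaptor that binds no DNA itself and bridges LIM-domain factors and their DNA-binding partners.

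LDB1 itself was lower in both knockdowns. In 6T-CEM, LDB1 fell by 1.60 on the log2 scale (SE 0.0709, adjusted p = 1.02e-09, edgeR), and in J.gamma1 it fell by 0.89 (SE 0.0751, adjusted p = 3.68e-06, edgeR). Library totals ranged from 26160492 to 30604977 counts. All 10 T-cell markers were above 3 counts in every group. Their summed level was between 1923 and 2020 CPM in 6T-CEM sh-NC and between 2468 and 2490 CPM in 6T-CEM sh-LDB1. In J.gamma1 it was between 2483 and 2490 CPM in sh-NC and between 3345 and 3367 CPM in sh-LDB1. The sum of 6 B-cell markers was between 34.7 and 34.96 CPM in 6T-CEM sh-NC and between 43.4 and 46.6 CPM in 6T-CEM sh-LDB1, with 80.4 to 82.0 CPM in J.gamma1 sh-NC and 104.7 to 107 CPM in J.gamma1 sh-LDB1. For 7 stromal and epithelial markers it was 65.1 to 65.7 CPM in 6T-CEM sh-NC, 54.2 to 57.9 CPM in 6T-CEM sh-LDB1, 119 to 121 CPM in J.gamma1 sh-NC and 92.4 to 101 CPM in J.gamma1 sh-LDB1. The T-cell and B-cell sums were thus higher and the stromal and epithelial sum lower with sh-LDB1 in both lines without overlap, and their part in the results below was not tested. The sum of 7 myeloid markers was 0.378 to 2.92 CPM over all groups. CPM denotes counts relative to the TMM-scaled library size of the 8 libraries, and each group level is given as mean ± SD with n = 2. In such bulk RNA, fewer expressing cells and less RNA per cell cannot be told apart.

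Several of these genes are known NF-κB targets themselves, and the κB consensus, the DNA element that NF-κB dimers recognize, was looked up in their promoters. RefSeq start-site windows on GRCh38.p14, 250 bases before and 50 bases after the start, were matched for 9 of the 10 genes, with RELB not matched. The κB consensus was searched on both strands, and a stretch matched on both at the same position was counted once. It was present in 7 of the 15 windows of these genes and in 5.91% of all 35116 windows. The 6 genes with a match were NFKB1, NFKB2, REL, NFKBIA, TNFAIP3 and BCL3, and the stretches below are shown because they carry such matches, with 20 bases on either side. Each reads 5′ to 3′ on the strand of the gene, with matches in capitals. They lie at chr4:102501290-102501339 (NFKB1, plus strand), chr10:102394451-102394529 (NFKB2, plus), chr2:60881507-60881557 (REL, plus), chr14:35404801-35404850 (NFKBIA, minus), chr6:137867172-137867233 (TNFAIP3, plus) and chr19:44748690-44748739 (BCL3, plus).
NFKB1: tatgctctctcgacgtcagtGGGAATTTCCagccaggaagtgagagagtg
NFKB2: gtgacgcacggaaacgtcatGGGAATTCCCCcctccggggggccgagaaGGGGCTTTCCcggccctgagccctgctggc
REL: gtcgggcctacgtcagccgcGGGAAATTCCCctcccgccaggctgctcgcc
NFKBIA: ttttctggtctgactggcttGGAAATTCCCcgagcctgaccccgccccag
TNFAIP3: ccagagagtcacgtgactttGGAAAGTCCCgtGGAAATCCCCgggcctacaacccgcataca
BCL3: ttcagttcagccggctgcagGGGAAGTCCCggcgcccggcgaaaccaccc

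The NFKB2 and TNFAIP3 runs shown hold 2 separate matched stretches each. A second NFKB2 window, which belongs to another start site of the gene, held 2 further matches that are not shown. A match is a description of these letters and not a measured binding site.

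In 6T-CEM, NFKB1, RELA, TNFAIP3 and TNFAIP8 were lower with sh-LDB1, and NFKBIA was lower by a narrow margin (log2 fold change -0.07). TNFAIP8L2 and the reads assigned to REL were higher there, and NFKB2, RELB and BCL3 overlapped between the groups. In J.gamma1, NFKB1, RELA, TNFAIP3, TNFAIP8, NFKB2, RELB and NFKBIA were lower, TNFAIP8L2 was higher, and REL and BCL3 overlapped. The libraries of the 2 groups did not overlap for 7 of the 10 genes in 6T-CEM and for 8 of the 10 in J.gamma1, where 65.3% and 75.9% of all genes tested did not overlap. By the edgeR call used for all genes, 2 of the 10 were higher and 4 lower in 6T-CEM, where 15.1% of all genes tested were called higher and 16.2% lower. In J.gamma1, 1 was called higher and 7 lower, where 25.0% of all genes tested were called higher and 26.5% lower. These shares are background, and since the genes were selected on the same contrasts nothing is read from the counts. The median log2 fold change of the 10 genes in 6T-CEM was -0.12, and in J.gamma1 -0.63, beside medians of 0.0027 and -0.0002 over all genes tested.

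**Figure D1:**
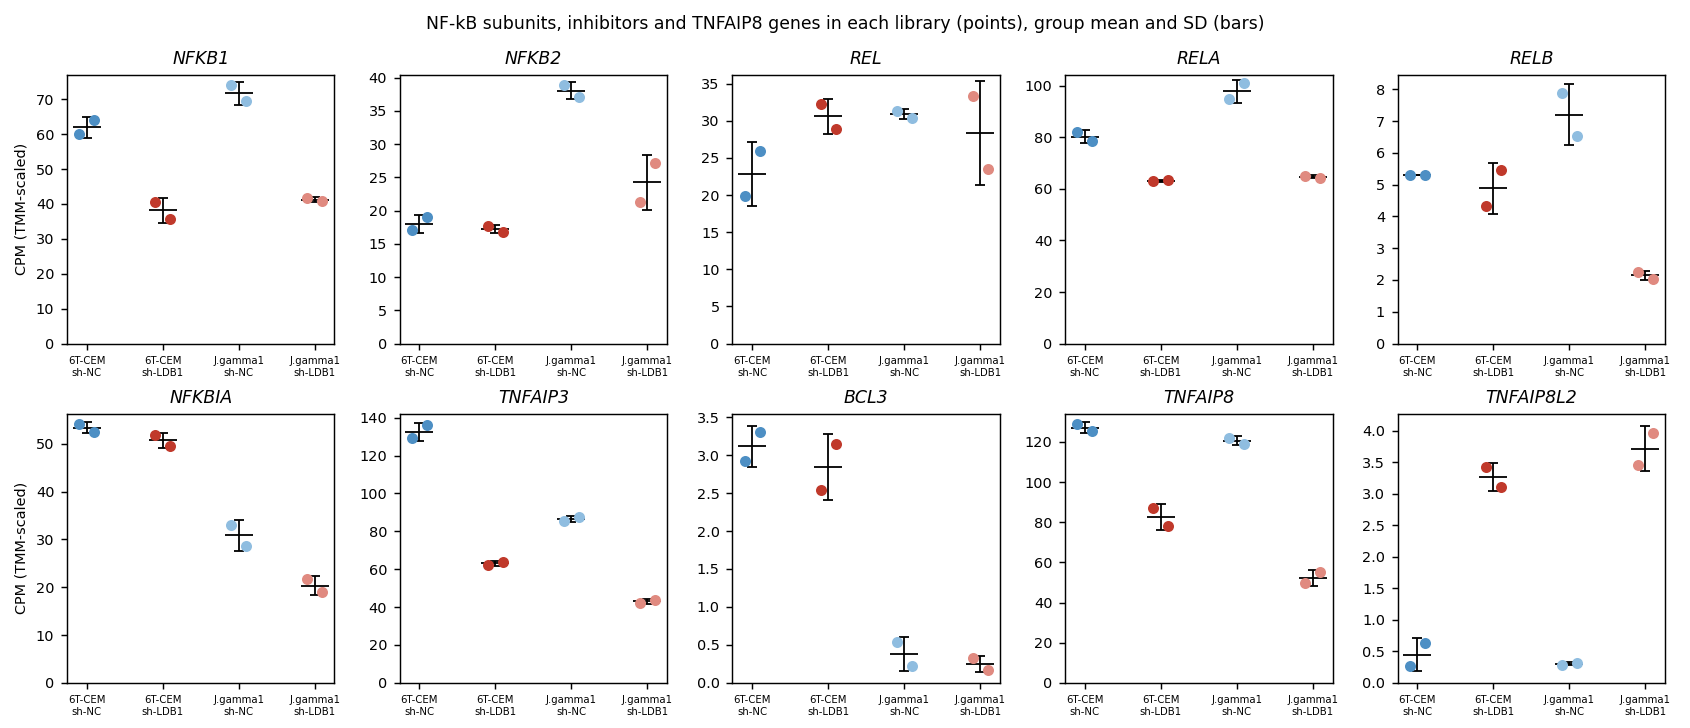
Each panel plots 1 gene in TMM-scaled CPM (vertical axis, from 0) for the 4 groups, with points for libraries and bars for the group mean and SD (n = 2). TNFAIP3 goes from 133 CPM down to 63.0 CPM in 6T-CEM and from 86.7 CPM down to 43.0 CPM in J.gamma1, while RELB separates only in J.gamma1 and TNFAIP8L2 is near 0 in all 4 sh-NC libraries.

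NFKB1 (ENSG00000109320, chromosome 4 from 102501330 to 102617302, plus strand, hg38), the source of p50, was measured at 59.9 and 64.1 CPM in 6T-CEM sh-NC and at 40.6 and 35.7 CPM in 6T-CEM sh-LDB1. In J.gamma1 it was measured at 74.1 and 69.4 CPM in sh-NC and at 41.8 and 40.7 CPM in sh-LDB1. Every sh-LDB1 library lay below every sh-NC library of its line. NFKB1 had log2 fold changes of -0.70 (SE 0.0835) in 6T-CEM and -0.79 (SE 0.0696) in J.gamma1, 61.7% of the control level in 6T-CEM. The difference of the change between the lines, J.gamma1 minus 6T-CEM, was -0.10 (SE 0.11), which is within its error.

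NFKB2 (ENSG00000077150, chromosome 10 from 102394110 to 102402524, plus strand), the source of p52 in the alternative NF-κB pathway, was measured at 17.1 and 19.0 CPM in 6T-CEM sh-NC and at 17.7 and 16.8 CPM in 6T-CEM sh-LDB1. In J.gamma1, NFKB2 was at 38.9 and 37.1 CPM in sh-NC and at 21.3 and 27.1 CPM in sh-LDB1. The groups overlapped in 6T-CEM and were apart in J.gamma1, where the 2 knockdown libraries differed most. The log2 fold change of NFKB2 was -0.06 (SE 0.121) for the 6T-CEM line and -0.64 (SE 0.108) for J.gamma1, a difference of -0.59 (SE 0.166). Among the fits that left out 1 library, the J.gamma1 value of NFKB2 ranged from -0.82 to -0.48.

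RELA (ENSG00000173039, chromosome 11 from 65653599 to 65663090, minus strand) encodes p65, the transactivating partner in the classical dimer. It was measured at 82.1 and 78.5 CPM in 6T-CEM sh-NC and at 62.9 and 63.5 CPM in 6T-CEM sh-LDB1. In J.gamma1, RELA was at 94.8 and 101 CPM in sh-NC and at 65.1 and 64.3 CPM in sh-LDB1. The 4 knockdown libraries of the lines were within 3 CPM of each other although the control levels were not. RELA had a log2 fold change of -0.34 (SE 0.0679) in 6T-CEM and -0.59 (SE 0.0584) in J.gamma1, with a difference of -0.25 (SE 0.0815).

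RELB (ENSG00000104856, chromosome 19 from 45001461 to 45038192, plus strand), the usual partner of p52, was a low-count gene. It had 138 and 143 counts in 6T-CEM sh-NC and 126 and 156 counts in 6T-CEM sh-LDB1. In J.gamma1, RELB had 250 and 206 counts in sh-NC and 63 and 60 counts in sh-LDB1. The groups overlapped in 6T-CEM, whereas in J.gamma1 both knockdown libraries were far below both control libraries. As levels, RELB was at 5.31 ± 0.00332 CPM and 4.89 ± 0.802 CPM in 6T-CEM, and at 7.20 ± 0.951 CPM and 2.14 ± 0.151 CPM in J.gamma1. For RELB the log2 fold change in 6T-CEM was -0.11 (SE 0.208), against -1.74 (SE 0.212) in J.gamma1. The difference of -1.63 (SE 0.303) was the furthest from 0 among the 10 genes.

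REL (ENSG00000162924, chromosome 2 from 60881491 to 60931612, plus strand) encodes c-Rel, the subunit best known from activated lymphocytes. Its counts cannot be read alone, because 33.3% of its annotated exon bases (5702 bases) are also exon bases of the long non-coding RNA gene ENSG00000267520 on the same strand. REL had 515 and 698 counts in 6T-CEM sh-NC and 939 and 828 counts in 6T-CEM sh-LDB1. The lncRNA had 266 and 83 counts in the same sh-NC libraries and 14 and 42 counts in the sh-LDB1 libraries. The replicate with fewer REL reads was the replicate with more lncRNA reads in each of these groups. The sum of REL and ENSG00000267520 was 781 counts in both 6T-CEM sh-NC libraries, and 953 and 870 counts in sh-LDB1.

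In J.gamma1 sh-LDB1 the replicate with fewer REL reads again had more lncRNA reads, whereas in sh-NC the same replicate had more of both. Whether reads moved between the genes was not tested. REL had 996 and 960 counts in J.gamma1 sh-NC and 933 and 691 counts in sh-LDB1, and ENSG00000267520 had 136 and 49 counts in sh-NC and 55 and 217 counts in sh-LDB1. The sums of REL and ENSG00000267520 were 1132 and 1009 counts in sh-NC, and 988 and 908 counts in sh-LDB1. Counted alone, REL had a log2 fold change of 0.42 (SE 0.125) in 6T-CEM and -0.12 (SE 0.165) in J.gamma1. Summed with the lncRNA, an alternative chosen after these counts were seen, the change in 6T-CEM was 0.10 (SE 0.091), and that in J.gamma1 -0.03 (SE 0.0935). The summed level was 29.5 ± 0.761 CPM and 31.6 ± 1.60 CPM in 6T-CEM. The libraries there did not overlap, by a narrow margin, at 30.1 and 29.0 CPM in sh-NC and 32.7 and 30.4 CPM in sh-LDB1. In J.gamma1 the summed level was 33.8 ± 2.60 CPM and 33.1 ± 3.17 CPM, and the libraries overlapped. The difference between the lines went from -0.54 (SE 0.243) for REL alone to -0.13 (SE 0.131) for the sum.

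**Figure D2:**
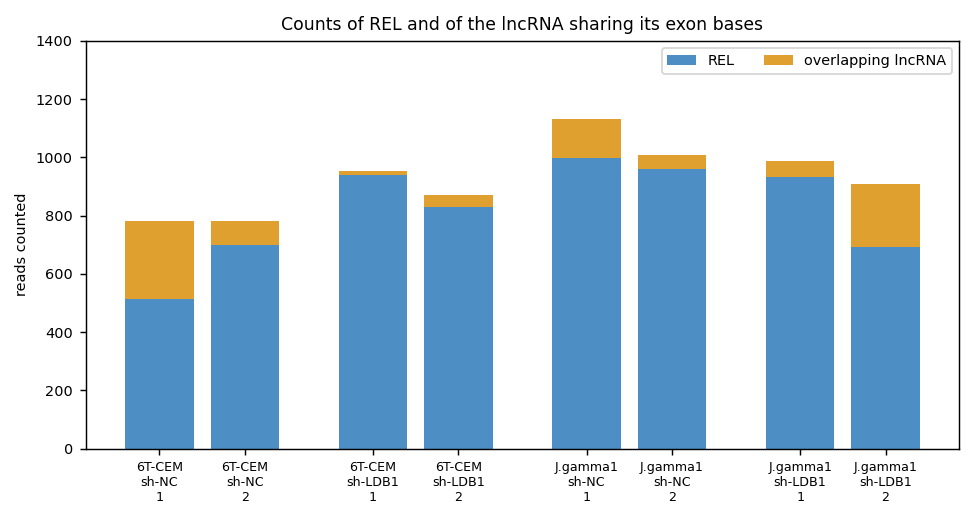
Stacked bars give the reads counted (vertical axis, from 0) for REL and for the overlapping lncRNA ENSG00000267520 in each of the 8 libraries, named by line, shRNA and replicate. Both 6T-CEM sh-NC bars reach 781 counts although their REL parts are 515 and 698 counts.

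Among the inhibitors, NFKBIA (ENSG00000100906, chromosome 14 from 35401079 to 35404749, minus strand) encodes IκBα. It was measured at 54.1 and 52.5 CPM in 6T-CEM sh-NC and at 51.8 and 49.6 CPM in 6T-CEM sh-LDB1. In J.gamma1, NFKBIA was at 33.1 and 28.6 CPM in sh-NC and at 21.8 and 18.9 CPM in sh-LDB1. The knockdown libraries were below the controls in both lines, by a narrow margin in 6T-CEM. For NFKBIA the log2 fold change in 6T-CEM was -0.07 (SE 0.074), against -0.60 (SE 0.107) in J.gamma1, with a difference of -0.53 (SE 0.13).

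TNFAIP3 (ENSG00000118503, chromosome 6 from 137867214 to 137883314, plus strand) was the inhibitor with the most reads. It was measured at 129 and 136 CPM in 6T-CEM sh-NC and at 62.2 and 63.9 CPM in 6T-CEM sh-LDB1. In J.gamma1, TNFAIP3 was at 85.5 and 87.8 CPM in sh-NC and at 42.2 and 43.7 CPM in sh-LDB1. The groups were well apart in both lines, and the change was alike: -1.07 (SE 0.0647) in 6T-CEM and -1.01 (SE 0.0633) in J.gamma1 on the log2 scale, with a difference of 0.06 (SE 0.0795). TNFAIP3 shares 95 exon bases, 1.47% of its exons, with WAKMAR2, an antisense lncRNA gene that starts beside it. WAKMAR2, which was not among the 10 genes, fell by 0.79 in 6T-CEM (SE 0.13, adjusted p = 0.00031, edgeR) and by 1.62 in J.gamma1 (SE 0.219, adjusted p = 0.000137, edgeR). With the counts of TNFAIP3 and WAKMAR2 summed, the log2 fold change in 6T-CEM was -1.03 (SE 0.0633), against -1.06 (SE 0.0591) in J.gamma1.

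BCL3 (ENSG00000069399, chromosome 19 from 44747705 to 44760044, plus strand) had few reads. It had 76 and 89 counts in 6T-CEM sh-NC and 74 and 90 counts in 6T-CEM sh-LDB1. In J.gamma1, BCL3 had 17 and 7 counts in sh-NC and 9 and 5 counts in sh-LDB1. The groups overlapped in both lines. The log2 fold change in 6T-CEM was -0.13 (SE 0.254), against -0.62 (SE 0.718) in J.gamma1. Both values were within their error, which was wide in J.gamma1 at these counts.

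TNFAIP8 (ENSG00000145779, chromosome 5 from 119268692 to 119399688, plus strand), the founding gene of its family and an NF-κB-inducible inhibitor of apoptosis, was among the most abundant of the 10 genes. It was measured at 129 and 125 CPM in 6T-CEM sh-NC and at 87.1 and 78.1 CPM in 6T-CEM sh-LDB1. In J.gamma1, TNFAIP8 was at 122 and 119 CPM in sh-NC and at 49.5 and 55.0 CPM in sh-LDB1. All 4 knockdown libraries were below all 4 control libraries. The log2 fold change in 6T-CEM was -0.62 (SE 0.0671), against -1.20 (SE 0.063) in J.gamma1, with a difference of -0.58 (SE 0.0957).

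**Figure D3:**
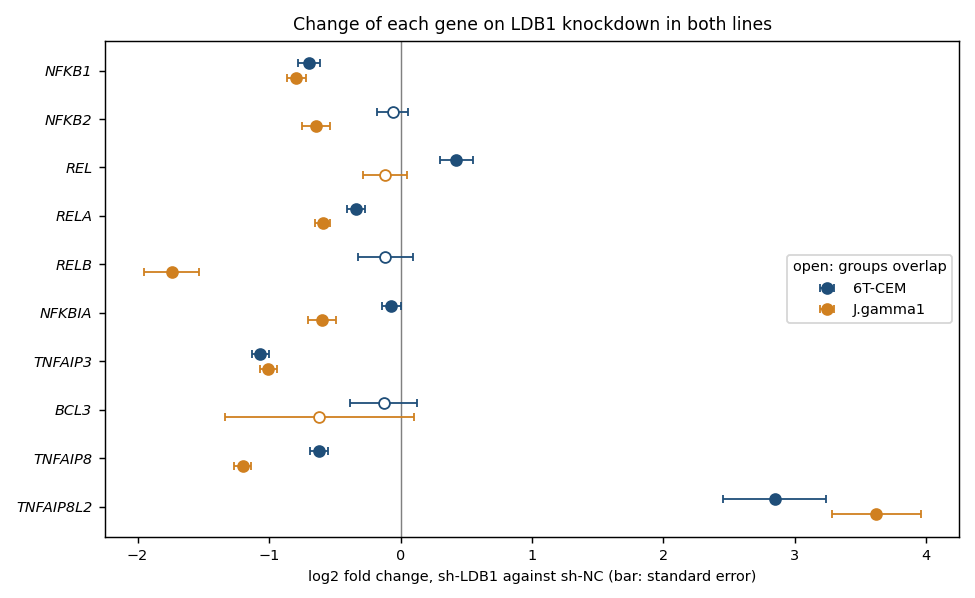
For each of the 10 genes (vertical axis) the log2 fold change of sh-LDB1 against sh-NC (horizontal axis) is drawn with its standard error in 6T-CEM and J.gamma1, filled where the libraries of the groups did not overlap and open where they did. Of the 10 genes, 8 lie below 0 in 6T-CEM and 9 in J.gamma1, and RELB has the widest gap between the lines, -0.11 against -1.74.

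TNFAIP8L2 (ENSG00000163154, chromosome 1 from 151156649 to 151159749, plus strand, 2 exons) was the only one of the 10 genes that was higher with sh-LDB1 in both lines. It had 7 and 17 counts in 6T-CEM sh-NC and 100 and 89 counts in 6T-CEM sh-LDB1. In J.gamma1, TNFAIP8L2 had 9 and 10 counts in sh-NC and 97 and 117 counts in sh-LDB1. The 4 control libraries were at 17 counts or fewer and the 4 knockdown libraries at 89 counts or more. As levels, it was at 0.450 ± 0.256 CPM and 3.27 ± 0.225 CPM in 6T-CEM, and at 0.300 ± 0.0237 CPM and 3.72 ± 0.358 CPM in J.gamma1. The log2 fold change was 2.85 (SE 0.389), or 7.19-fold, in 6T-CEM and 3.62 (SE 0.338), or 12.3-fold, in J.gamma1. By size of increase it was number 75 of 16059 genes tested in 6T-CEM and number 81 of 17215 in J.gamma1. The difference between the lines was 0.77 (SE 0.558), on control counts of 17 or fewer, and it ranged from 0.04 to 1.26 when single libraries were left out. The TNFAIP8L2 change in 6T-CEM ranged from 2.37 to 3.59 when single libraries were left out, and was highest without 6T-CEM sh-NC replicate 2.

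TNFAIP8L2 lies in a crowded locus. Of its 1158 exon bases, 59 (5.09%) are also exon bases of SCNM1, a splicing-associated gene on the same strand whose read-through transcript begins inside the 74-base first exon of TNFAIP8L2. Its last exon shares 2 bases with LYSMD1 on the opposite strand. The bases around the start of TNFAIP8L2 are shown because reads there can be assigned to either gene. They lie at chr1:151156549-151156698 (plus strand), with the part also annotated as an SCNM1 exon in capitals.
TNFAIP8L2: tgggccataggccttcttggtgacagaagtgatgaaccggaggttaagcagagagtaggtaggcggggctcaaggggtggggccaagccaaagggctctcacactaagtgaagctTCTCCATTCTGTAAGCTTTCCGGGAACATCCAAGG

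The window of this start held no κB consensus, and none of 4 further motifs on either strand. Of these, GATAA, the core of GATA elements, occurred in 22.7% of all windows and in windows of 2 of the 9 genes. The RUNX core TGTGGT occurred in 13.1% of all windows and in 0 of the 9 genes. The ETS core AGGAAG occurred in 33.6% of all windows and in 5 of the 9 genes, and the E-box form CAGNTG in 49.9% of all windows and in 4 of the 9 genes. A gene counted if any of its windows matched, and the 9 genes had 15 windows, so gene counts and window shares are unlike measures. The capitals cover only part of the first exon, and the other exon of TNFAIP8L2, 1084 bases long, overlaps SCNM1 nowhere.

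SCNM1 was at 39.9 ± 2.23 CPM and 43.0 ± 1.18 CPM in 6T-CEM, and its log2 change of 0.11 (SE 0.0823) did not pass the test (adjusted p = 0.334, edgeR). In J.gamma1, SCNM1 was at 38.6 ± 2.74 CPM and 44.2 ± 2.86 CPM, and its change of 0.20 (SE 0.0828) did not pass either (adjusted p = 0.0618, edgeR). LYSMD1 was at 13.4 ± 0.292 CPM and 10.4 ± 0.935 CPM in 6T-CEM (log2 change -0.36, SE 0.144, adjusted p = 0.074, edgeR). In J.gamma1, LYSMD1 fell by 0.82, from 20.1 ± 2.28 CPM to 11.3 ± 1.34 CPM (SE 0.131, adjusted p = 0.000362, edgeR). The sum of the 3 genes was 53.8 ± 2.27 CPM and 56.7 ± 2.34 CPM in 6T-CEM, and 59.0 ± 0.487 CPM and 59.3 ± 1.16 CPM in J.gamma1. Within that sum TNFAIP8L2 made up 0.838% of control and 5.77% of knockdown reads in 6T-CEM, and 0.509% and 6.28% in J.gamma1, so the sum hardly registers a change of TNFAIP8L2. The gain of TNFAIP8L2, 2.82 CPM and 3.42 CPM, was about as large as the replicate SD of SCNM1, and a shift of reads between the genes was not tested.

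**Figure D4:**
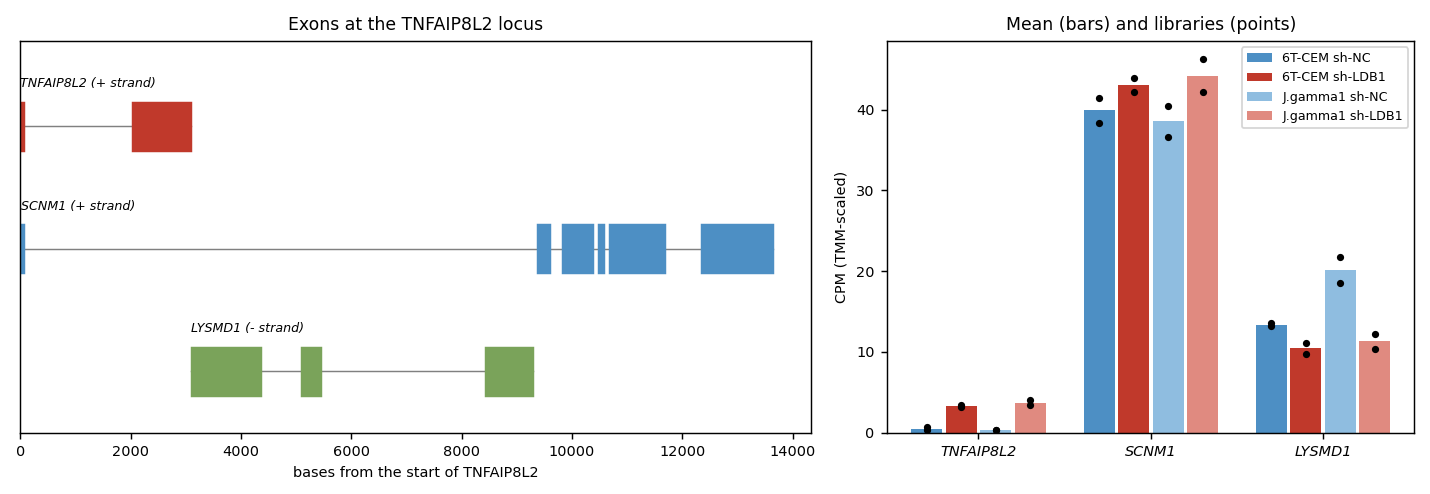
The left panel draws the annotated exons of TNFAIP8L2, SCNM1 and LYSMD1 to scale by distance in bases from the start of TNFAIP8L2, and the right panel gives their group means (bars, from 0) and libraries (points) in TMM-scaled CPM. SCNM1 and TNFAIP8L2 share 59 bases at the left end, and TNFAIP8L2 is at 0.450 CPM without and 3.27 CPM with sh-LDB1 in 6T-CEM, and at 0.300 and 3.72 CPM in J.gamma1, beside SCNM1 levels between 38.6 and 44.2 CPM.

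The genes whose profile over the 8 libraries was most like that of TNFAIP8L2 were SLC6A9, SH3TC1, RAG1, RASAL3 and DBH. Likeness was the root mean square difference of log2 CPM centred on each gene's mean, among 13612 genes whose mean normalized count was 50 or more, and it was 0.366, 0.452, 0.539, 0.569 and 0.589 in that order. RAG1, a subunit of the recombinase that assembles antigen receptor genes, had 2495 and 2788 counts in 6T-CEM sh-NC and 8943 and 8937 counts in 6T-CEM sh-LDB1. In J.gamma1, RAG1 had 1197 and 1187 counts in sh-NC and 9982 and 10162 counts in sh-LDB1.

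The order of the 10 genes by abundance was compared per kilobase of the annotated transcript (CPM per kb). In 6T-CEM sh-NC it ran NFKBIA (34.2 ± 0.728), RELA (31.9 ± 1.02), TNFAIP3 (28.4 ± 1.00), TNFAIP8 (18.2 ± 0.394), NFKB1 (15.3 ± 0.739), NFKB2 (5.97 ± 0.449), RELB (2.35 ± 0.00147), REL (2.06 ± 0.387), BCL3 (1.66 ± 0.142) and TNFAIP8L2 (0.389 ± 0.221). The libraries of RELB and REL nearly met, at 2.35 and 2.33 CPM per kb. In J.gamma1 sh-NC, RELA led at 38.9 ± 1.77 CPM per kb. NFKBIA (19.8 ± 2.06) and TNFAIP3 (18.6 ± 0.342) overlapped there, as did NFKB1 (17.7 ± 0.814) and TNFAIP8 (17.3 ± 0.304). NFKB2 followed at 12.6 ± 0.425, RELB at 3.19 ± 0.421, REL at 2.78 ± 0.0600, TNFAIP8L2 at 0.259 ± 0.0205 and BCL3 at 0.202 ± 0.118 CPM per kb, where the libraries of the last pair overlapped. With sh-LDB1, TNFAIP8L2 was 7 in the order in both lines with libraries that overlapped those of REL, at 2.83 ± 0.194 CPM per kb in 6T-CEM and 3.21 ± 0.309 CPM per kb in J.gamma1. Parts of the order depend on the length used: by the union of all annotated exons TNFAIP3 was 1 in 6T-CEM sh-NC, NFKBIA was 4 in J.gamma1 sh-NC, and TNFAIP8L2 was 6 in both sh-LDB1 groups.

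The control cells of the lines were also compared with each other. The levels in each line were known when the list was drawn up. The adjusted p values of these genes below are therefore a description and not an independent test. The lines were deposited as separate tables, so the line and any difference between their sequencing runs cannot be told apart. Of the 9 genes that passed the filter, 4 were higher in J.gamma1 sh-NC than in 6T-CEM sh-NC, 3 were lower and 2 did not pass, where 36.1% of all genes tested were higher and 32.8% lower. TNFAIP8L2 was below the filter. NFKB2 differed most among the subunits, by 1.07 on the log2 scale (SE 0.0918, adjusted p = 6.24e-06, edgeR). RELA was higher by 0.28 (SE 0.06, adjusted p = 0.00248, edgeR) and NFKB1 by 0.20 (SE 0.067, adjusted p = 0.0229, edgeR). NFKB1 no longer passed without 6T-CEM sh-NC replicate 1 (adjusted p = 0.126, edgeR) or without J.gamma1 sh-NC replicate 1 (adjusted p = 0.142, edgeR). REL was higher by 0.43 (SE 0.124, adjusted p = 0.0129, edgeR), and the sum with its lncRNA by 0.19 (SE 0.0867, adjusted p = 0.0805, edgeR), which did not pass. REL alone did not pass without 6T-CEM sh-NC replicate 1 (adjusted p = 0.0647, edgeR) or J.gamma1 sh-NC replicate 1 (0.0634).

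NFKBIA, TNFAIP3 and BCL3 were lower in J.gamma1 control cells. BCL3 was lower by a log2 change of -3.03 (SE 0.437, adjusted p = 0.000205, edgeR), with 17 and 7 counts against 76 and 89 counts. The BCL3 value was -3.79 without J.gamma1 sh-NC replicate 1 and -2.54 without J.gamma1 sh-NC replicate 2, and it passed in each fit that left out 1 library. NFKBIA differed by -0.80 (SE 0.086, adjusted p = 2.95e-05, edgeR) and TNFAIP3 by -0.62 (SE 0.0545, adjusted p = 7.21e-06, edgeR). RELB differed by 0.43 (SE 0.182, adjusted p = 0.0602, edgeR) and TNFAIP8 by -0.08 (SE 0.0512, adjusted p = 0.175, edgeR), and neither passed. The same control libraries enter this contrast and the knockdown changes above.

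The difference of the knockdown change between the lines was fitted to all 8 libraries. Of the 10 genes, 8 had a more negative value in J.gamma1 than in 6T-CEM, and TNFAIP3 and TNFAIP8L2 did not. The median difference of the 10 genes was -0.51, beside -0.0077 over all genes tested. Because the same knockdown changes chose the genes, these values are a description. LDB1 itself had a lower control level in J.gamma1, at 59.47 ± 0.964 CPM against 109.05 ± 3.04 CPM in 6T-CEM (log2 change -0.88, SE 0.0572, adjusted p = 9.37e-07, edgeR). With sh-LDB1 it was at 31.98 ± 1.72 CPM in J.gamma1 and 35.98 ± 1.42 CPM in 6T-CEM, and this gap was not tested. Relative to its own control, LDB1 was less reduced in J.gamma1, with a difference of the change of 0.70 (SE 0.0946, adjusted p = 0.000237, edgeR). Of the other pathway genes listed below, 59 were tested for this difference, with 6 called higher and 8 lower in J.gamma1, where 12.0% of all genes tested were called higher and 12.4% lower.

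The rest of the pathway was followed in 70 listed genes, of which 69 were matched. In 6T-CEM, 53 of them passed the filter, and 13 rose and 7 fell on LDB1 knockdown. In J.gamma1, 57 passed the filter, and 17 rose and 18 fell. These counts are set against the shares of all genes called in each line given above. Of the 51 genes tested in both lines, 9 rose in both, 4 fell in both, and CYLD passed in opposite directions. The pathway genes had a median log2 change of 0.05 in 6T-CEM, against -0.01 for J.gamma1. Genes named below outside the 3 most changed of each list were chosen after their values were seen.

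Of the 4 other IκB proteins (NFKBIB, NFKBIE, NFKBID and NFKBIZ), 0 passed the test in 6T-CEM by edgeR, where their adjusted p lay between 0.199 and 0.621. In J.gamma1 only NFKBIZ, an inducible nuclear IκB, passed among them, with 10 and 10 counts in sh-NC and 30 and 20 counts in sh-LDB1 (log2 change 1.46, SE 0.525, adjusted p = 0.0377, edgeR). NFKBIE, which encodes IκBε, had a log2 change of -0.26 (SE 0.148) in 6T-CEM and -0.31 (SE 0.122) in J.gamma1. The call of NFKBIZ was lost whichever of the 4 J.gamma1 libraries was left out (adjusted p = 0.0622 to 0.293, edgeR).

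Of the 10 kinases and their partners, 2 rose and 1 fell in 6T-CEM, and 3 rose and 4 fell in J.gamma1. MAP3K7 (TAK1), which activates the IκB kinases, rose in both, by 0.26 in 6T-CEM (SE 0.0628, adjusted p = 0.0055, edgeR) and by 0.22 in J.gamma1 (SE 0.06, adjusted p = 0.011, edgeR). IKBKG, the regulatory subunit NEMO, rose by 0.64 in 6T-CEM (SE 0.115, adjusted p = 0.000837, edgeR) and by 0.72 in J.gamma1 (SE 0.103, adjusted p = 0.000162, edgeR). The value of IKBKG is uncertain, because it has a near-identical pseudogene copy. IKBKB, the catalytic subunit of the classical pathway, fell by 0.27 in 6T-CEM (SE 0.0931, adjusted p = 0.0408, edgeR). In J.gamma1, TAB3, a TAK1 adaptor, went from 67.1 ± 0.993 CPM to 40.4 ± 0.331 CPM (log2 change -0.72, adjusted p = 6.94e-06, edgeR). IKBKE, an IκB kinase-related enzyme of innate signaling, rose there by 0.56 (SE 0.0881, adjusted p = 0.000346, edgeR), whereas CHUK, TBK1 and TAB2 fell by 0.25, 0.30 and 0.21. Some of these calls were lost when 1 library was left out. IKBKB lost its call without 6T-CEM sh-NC replicate 1 (adjusted p = 0.143, edgeR), sh-NC replicate 2 (0.183) or sh-LDB1 replicate 2 (0.273). In J.gamma1, MAP3K7 did so without sh-NC replicate 2 (adjusted p = 0.117, edgeR) or sh-LDB1 replicate 1 (0.0554), and TAB2 without sh-LDB1 replicate 2 (0.0583).

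Of the 12 adapters, 3 rose and 2 fell in 6T-CEM, and 2 rose and 5 fell in J.gamma1. TRAF1, an adapter of TNF receptors that is itself NF-κB-inducible, rose in both lines. TRAF1 had 49 and 49 counts in 6T-CEM sh-NC and 161 and 165 counts in sh-LDB1 (log2 change 1.61, SE 0.232, adjusted p = 9.9e-05, edgeR). In J.gamma1, TRAF1 had 159 and 116 counts in sh-NC and 210 and 212 counts in sh-LDB1 (0.76, SE 0.201, adjusted p = 0.00839, edgeR). TRAF5, another TNF receptor adapter, fell by 0.81 in 6T-CEM (SE 0.125, adjusted p = 0.00019, edgeR) and by 0.97 in J.gamma1 (SE 0.075, adjusted p = 1.88e-06, edgeR). TRADD, the adapter of TNFR1, rose by 0.58 in 6T-CEM (adjusted p = 0.0464, edgeR) and by 0.72 in J.gamma1 (adjusted p = 0.00144, edgeR). TRAF6, a ubiquitin ligase of innate receptors, rose by 0.37 in 6T-CEM (adjusted p = 0.00779, edgeR). BIRC3 (cIAP2) fell by 0.72 in 6T-CEM (SE 0.122, adjusted p = 0.000418, edgeR), and in J.gamma1 its change was -0.21 (SE 0.0835, adjusted p = 0.0584, edgeR). In J.gamma1, BCL10 and MALT1, which link the T-cell receptor to IκB kinase, fell by 0.50 and 0.46, and TRAF2 and TRAF3 fell by 0.38 and 0.16. In 6T-CEM, TRADD lost its call without sh-NC replicate 1 (adjusted p = 0.152, edgeR), sh-NC replicate 2 (0.16) or sh-LDB1 replicate 2 (0.332), and TRAF6 without sh-NC replicate 1 (0.088) or sh-LDB1 replicate 2 (0.0671). In J.gamma1, TRAF1 lost its call without sh-NC replicate 2 (adjusted p = 0.0612, edgeR), and TRAF3 without sh-NC replicate 2 (0.145), sh-LDB1 replicate 1 (0.16) or sh-LDB1 replicate 2 (0.0546).

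Of the 10 ubiquitin editors, 3 rose and 1 fell in 6T-CEM, and 4 rose and 5 fell in J.gamma1. TNIP1, an A20-binding protein, fell with TNFAIP3 in both lines, from 86.6 ± 2.66 CPM to 68.0 ± 0.684 CPM in 6T-CEM (adjusted p = 0.00116, edgeR) and from 58.4 ± 1.21 CPM to 33.6 ± 2.40 CPM in J.gamma1 (adjusted p = 1.13e-05, edgeR). CYLD, a deubiquitinase that limits NF-κB signaling, went from 13.2 ± 0.0874 CPM to 17.1 ± 1.63 CPM in 6T-CEM (adjusted p = 0.0409, edgeR) and from 91.9 ± 1.37 CPM to 64.0 ± 1.97 CPM in J.gamma1 (adjusted p = 3.1e-05, edgeR). TNIP2, another A20-binding protein, rose by 0.36 in 6T-CEM (adjusted p = 0.0232, edgeR) and by 0.41 in J.gamma1 (adjusted p = 0.00147, edgeR), and RNF31, of the linear ubiquitin ligase, rose by 0.32 and 0.48. RNF31 shares 51.5% of its exon bases with a read-through gene and is uncertain. In J.gamma1, RBCK1 of the same ligase rose by 0.28 and RNF11, a partner of A20, rose by 0.55, whereas OTULIN, TAX1BP1 and ITCH fell by 0.16, 0.14 and 0.19. Several of the smaller changes lost their call when 1 library was left out. In 6T-CEM, CYLD lost its call without sh-NC replicate 1 (adjusted p = 0.159, edgeR), sh-NC replicate 2 (0.14) or sh-LDB1 replicate 1 (0.213). TNIP2 did so without sh-NC replicate 1 (adjusted p = 0.0644, edgeR), sh-NC replicate 2 (0.162) or sh-LDB1 replicate 2 (0.217), and RNF31 without sh-NC replicate 1 (0.125) or sh-LDB1 replicate 1 (0.0719). In J.gamma1, RNF11 lost its call without either sh-LDB1 library (adjusted p = 0.206 and 0.192, edgeR), RBCK1 without sh-LDB1 replicate 2 (0.059), and ITCH without sh-NC replicate 1 (0.0807) or sh-LDB1 replicate 2 (0.0778). OTULIN and TAX1BP1 each lost theirs without sh-NC replicate 1 (adjusted p = 0.247 and 0.229, edgeR), sh-LDB1 replicate 1 (0.0868 and 0.155) or sh-LDB1 replicate 2 (0.146 and 0.0692).

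Of the 14 ligands and receptors, 7 passed the filter in 6T-CEM, with 3 higher and 0 lower, and 8 passed in J.gamma1, with 3 higher and 1 lower. LTB, the membrane anchor of lymphotoxin, rose from 8.57 ± 0.515 CPM to 18.2 ± 0.127 CPM in 6T-CEM (log2 change 1.09, SE 0.137, adjusted p = 2.76e-05, edgeR). In J.gamma1, LTB had 10 and 13 counts in sh-NC and 50 and 85 counts in sh-LDB1 (2.68, SE 0.416, adjusted p = 0.000306, edgeR). TNF rose by 0.78 in 6T-CEM (SE 0.195, adjusted p = 0.00668, edgeR) and had 6 counts or fewer in every J.gamma1 library. TNFRSF1A, the main TNF receptor, rose by 0.28 in 6T-CEM (adjusted p = 0.00418, edgeR) and by 0.30 in J.gamma1 (adjusted p = 0.0019, edgeR). In J.gamma1, TNFRSF8 (CD30) rose by 0.62 (adjusted p = 0.00363, edgeR) and CD40LG fell by 0.62 (adjusted p = 0.0127, edgeR). CD40LG had 0 counts in all 4 6T-CEM libraries. In 6T-CEM, TNF lost its call without sh-NC replicate 1 (adjusted p = 0.0672, edgeR) and TNFRSF1A without sh-LDB1 replicate 2 (0.0537). In J.gamma1, CD40LG lost its call without sh-NC replicate 2 (adjusted p = 0.0565, edgeR) or sh-LDB1 replicate 2 (0.0862).

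Of the 18 classical NF-κB targets, 9 passed the filter in 6T-CEM, with 1 higher and 3 lower, and 12 passed in J.gamma1, with 4 higher and 3 lower. CD69, an early T-cell activation marker, fell by 0.70 in 6T-CEM (SE 0.167, adjusted p = 0.0051, edgeR) and by 1.25 in J.gamma1 (SE 0.142, adjusted p = 3.24e-05, edgeR). CD83, an activation-induced surface protein, fell by 0.46 in 6T-CEM (adjusted p = 0.00364, edgeR) and by 0.44 in J.gamma1 (adjusted p = 0.00276, edgeR). JUNB, an AP-1 subunit, fell by 0.63 in 6T-CEM (SE 0.118, adjusted p = 0.000848, edgeR), and shares 14.2% of its exon bases with HOOK2. XIAP, an inhibitor of caspases, rose by 0.41 in 6T-CEM (adjusted p = 0.0111, edgeR) and by 0.54 in J.gamma1 (adjusted p = 0.000336, edgeR). BCL2L1 (BCL-XL) fell in J.gamma1 from 224 ± 2.19 CPM to 151 ± 0.157 CPM (adjusted p = 2.58e-06, edgeR), and in 6T-CEM its change was 0.0012 (SE 0.0587). An annotated antisense gene covers 41.3% of the exon bases of BCL2L1. CFLAR, CCND2 and PLAU rose in J.gamma1 by 0.43, 0.86 and 1.32, of which PLAU had 62 counts or fewer in every library. PLAU also shares 31% of its exon bases with an antisense gene. The calls of PLAU and CCND2 were lost with DESeq2 (adjusted p = 0.0656 and 0.17) and with 1 fit to all 8 libraries (adjusted p = 0.119 and 0.118, edgeR). CCND2 lost its call whichever of the 4 J.gamma1 libraries was left out (adjusted p = 0.0583 to 0.0953, edgeR). In 6T-CEM, CD69 lost its call without sh-NC replicate 2 (adjusted p = 0.0618, edgeR) or sh-LDB1 replicate 2 (0.0592), and XIAP without sh-NC replicate 1 (0.147), sh-NC replicate 2 (0.071) or sh-LDB1 replicate 1 (0.0678). Of the relatives of TNFAIP8, TNFAIP8L1 rose by 0.69 in 6T-CEM (SE 0.087, adjusted p = 2.76e-05, edgeR), and in J.gamma1 its change was 0.04 (SE 0.0838, adjusted p = 0.739, edgeR).

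**Figure D5:**
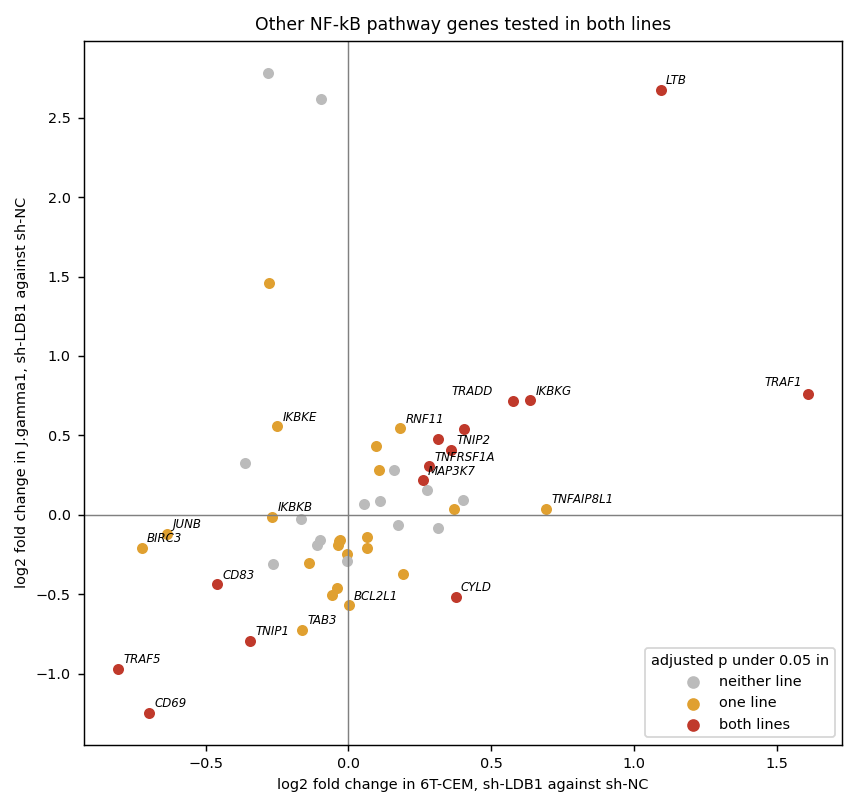
Each point is 1 of the 51 other pathway genes tested in both lines, by its log2 fold change in 6T-CEM (horizontal axis) and in J.gamma1 (vertical axis), coloured by the lines in which its adjusted p was under 0.05. LTB and TRAF1 stand at the upper right, TRAF5 and CD69 at the lower left, and CYLD at 0.38 in 6T-CEM and -0.52 in J.gamma1.

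In control cells, 58 of the pathway genes were tested, of which 27 were higher in J.gamma1 and 20 lower, where 36.1% of all genes tested were higher and 32.8% lower. CD40LG had 243 and 264 counts in J.gamma1 sh-NC and 0 in both 6T-CEM sh-NC libraries, at least 76.3-fold higher against a floor of 3 counts per library. TNFRSF8 was at 12.1 ± 2.14 CPM in J.gamma1 and 0.302 ± 0.0457 CPM in 6T-CEM (adjusted p = 2.19e-07, edgeR). TNF had 102 and 123 counts in 6T-CEM sh-NC and 2 and 5 counts in J.gamma1 sh-NC (adjusted p = 6.16e-06, edgeR). Among the regulators, CYLD was 6.93-fold higher in J.gamma1 (SE 0.0711 on the log2 scale, adjusted p = 3.64e-09, edgeR), and MAP3K14 (NIK), the kinase of the alternative pathway, was 1.97-fold higher (adjusted p = 9.2e-05, edgeR). MAP3K14 shares 15.1% of its exon bases with an antisense gene. ICAM1, an adhesion molecule and target, was higher by 1.59 on the log2 scale (adjusted p = 3.21e-05, edgeR), and shares 23.6% of its exon bases with an antisense gene.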

How the data were processed

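The authors used HISAT2 2.2.0 on hg38 to align paired-end reads and StringTie to count genes. The deposited files, 1 table per line, hold raw counts per gene for 4 libraries each, without normalization or pooling. The annotation release, strand setting and treatment of shared reads are not given in the sources used here. The tables list 64252 genes in different row orders and were joined by Ensembl identifier. Symbols were matched for 56105 of them with GENCODE release 44, from which coordinates, lengths and exon overlaps were taken, and promoter windows came from RefSeq.

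The 10 genes and all lists were chosen with earlier results of these data known. Counts were tested with edgeR 4.0.16 in R 4.3.3 (quasi-likelihood, robust, TMM, filterByExpr, Benjamini-Hochberg over all genes, call at adjusted p under 0.05), each comparison on its own 4 libraries and the difference between the lines on all 8. The tests covered 16059 genes in 6T-CEM, 17215 in J.gamma1, 17340 in control cells and 18552 for the difference. A standard error is the size of the log2 change divided by the square root of F. The authors used DESeq2 at an adjusted p under 0.05 with an absolute fold change over 1, read here as no further limit. Replicates correlated at 0.986 to 0.987 and differed by more than sampling noise, and the biological coefficient of variation was 9.03% to 9.68%. The script was tested on simulated data.

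Named pathway genes are the 3 of each list with the largest change among those that passed, whose mean normalized count was 50 or more. Alternatives were 3 other normalizations, 2 other filters, DESeq2 1.42.0, a log2 fold change beyond 1, the replicate block, 1 fit to all libraries, each library left out, and counts summed over overlapping genes.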

Additional observations from a re-analysis of the deposited data

Results flagged for a closer look

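For 13 genes, LDB1 and 12 pathway genes named by the rule of size and a mean normalized count of 50 or more, the response to LDB1 knockdown differed between the lines by edgeR's test of the difference itself, which subtracts the log2 change in 6T-CEM from that in J.gamma1. LDB1 differed by 0.704 (adjusted p = 0.000237, edgeR), where 6T-CEM had a log2 change of -1.60 and J.gamma1 of -0.89. LTB differed by 1.58 (adjusted p = 0.00773, edgeR), from 1.09 in 6T-CEM to 2.68 in J.gamma1, and IKBKE by 0.805 (adjusted p = 0.00135), from -0.25 to 0.56. BIRC3 differed by 0.514 (adjusted p = 0.0332, edgeR), from -0.72 to -0.21. JUNB differed by 0.512 (adjusted p = 0.0497, edgeR), from -0.63 to -0.12. BIRC3 lost its call without 6T-CEM sh-NC replicate 1, sh-NC replicate 2 or sh-LDB1 replicate 2, or without J.gamma1 sh-NC replicate 2 or either J.gamma1 sh-LDB1 library (adjusted p = 0.0622 to 0.124, edgeR). JUNB lost its call whichever library was left out, except J.gamma1 sh-NC replicate 2 (adjusted p = 0.0543 to 0.182, edgeR).

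The other 8 genes had the lower value in J.gamma1. CYLD differed by -0.894 (adjusted p = 0.000146, edgeR), from 0.38 in 6T-CEM to -0.52 in J.gamma1. TNFAIP8L1 differed by -0.657 (adjusted p = 0.00184, edgeR), from 0.69 to 0.04. BCL2L1 differed by -0.572 (adjusted p = 0.000104, edgeR), TRAF2 by -0.570 (adjusted p = 0.00457) and TAB3 by -0.565 (adjusted p = 0.00129). TNIP1 differed by -0.449 (adjusted p = 0.00436, edgeR), MALT1 by -0.427 (adjusted p = 0.00748) and TAB2 by -0.276 (adjusted p = 0.0162). TAB2 lost its call without sh-NC replicate 1 or sh-LDB1 replicate 2 of 6T-CEM, or without sh-NC replicate 2 or sh-LDB1 replicate 2 of J.gamma1 (adjusted p = 0.0588 to 0.0791, edgeR).

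NFKBIZ (1.74, adjusted p = 0.0331, edgeR) and PLAU (6.49, adjusted p = 0.0443) passed the same test below that mean count, and PLAU had 0 counts in both 6T-CEM sh-LDB1 libraries, so its fitted difference is no measure of size. NFKBIZ lost its call whichever library was left out, except 6T-CEM sh-LDB1 replicate 1 or J.gamma1 sh-LDB1 replicate 2 (adjusted p = 0.0583 to 0.14, edgeR). PLAU did so except without 6T-CEM sh-NC replicate 2 (adjusted p = 0.0751 to 1, edgeR).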

How the results depend on the processing

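No called value changed sign under the alternatives run. Among the 10 genes, values that were not called spanned 0 when 1 library was left out: RELB (-0.30 to 0.05), NFKB2 (-0.13 to 0.02) and BCL3 (-0.30 to 0.02) in 6T-CEM, REL in J.gamma1 (-0.39 to 0.12), and the differences of NFKB1 (-0.177 to 0.0046) and BCL3 (-1.01 to 0.27). Leaving aside the fits without 1 library, 153 counts stayed within 1.5 times and 22 did not, while of the values of single genes 1165 kept their side of the threshold or moved by less than their spread, 76 lost a call, 2 gained one and 14 moved further. A log2 fold change beyond 1 lowered the counts by construction. It left 824 genes called in 6T-CEM, 2386 in J.gamma1, 5785 between the control cells and 1088 for the difference between the lines. Of the 10 NF-κB genes it left 1 higher and 1 lower in 6T-CEM, and 1 higher (TNFAIP8L2) and 3 lower in J.gamma1. It left 1 higher and 1 lower between the control cells, and 1 lower for the difference. Of the pathway genes it left 2 higher and 0 lower in 6T-CEM, 3 higher and 1 lower in J.gamma1, 10 higher and 7 lower between the control cells, and 3 higher and 0 lower for the difference. Of the 10 genes, 1 was higher in 6T-CEM without a filter on low counts and with 1 fit to all 8 libraries, and the unfiltered difference had 3 higher pathway genes. The cause was not tested. Scaling by library totals alone moved the median of all genes between the control cells from 0.03 to 0.19 and left 13 lower pathway genes there. Leaving out 1 library gave 3234 to 3875 called genes in 6T-CEM, with 1 to 2 of the 10 genes higher and 6 to 11 pathway genes higher. It gave 2 to 4 of the 10 genes higher between the control cells, and 3 to 4 lower and 2 to 6 pathway genes higher for the difference. An arm left with 1 library is assumed to vary like the others. With DESeq2, TRADD (adjusted p = 0.172), CYLD (0.126), TNIP2 (0.0703) and IKBKB (0.173) in 6T-CEM lost their call. In J.gamma1, NFKBIZ (0.219), TRAF3 (0.0558), OTULIN (0.0715) and CD40LG (0.0505) did so, besides PLAU and CCND2. With upper-quartile scaling and with library totals, IKBKB in 6T-CEM lost its call (adjusted p = 0.0656 and 0.0983, edgeR). In J.gamma1, TRAF3 (0.1235 and 0.0652), OTULIN (0.124 and 0.0897) and TAX1BP1 (0.155 and 0.09455) lost theirs under the same 2 scalings. Without a filter, TRADD, CYLD, TNIP2 and IKBKB in 6T-CEM lost their call (adjusted p = 0.109, 0.0848, 0.0844 and 0.0923, edgeR). So did NFKBIZ, TRAF3, OTULIN and TAX1BP1 in J.gamma1 (0.0599, 0.056, 0.0635 and 0.0632). With 1 fit to all 8 libraries, TAX1BP1 and CD40LG in J.gamma1 lost theirs (0.0804 and 0.0531), besides PLAU and CCND2. REL between the control cells missed the threshold without a filter (0.0608) and with 1 fit to all 8 libraries (0.0518). RELB passed there with upper-quartile scaling (0.035) and library totals (0.0189). With DESeq2, BIRC3 and JUNB missed the threshold for the difference (adjusted p = 0.0628 and 0.109).

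Samples with the same replicate number did not deviate together (r = -0.042, -0.0326 and 0.06 for the 3 pairings, over 13615 genes), so the numbers were not treated as pairs. With the replicate block 5070 genes were called in 6T-CEM, 8785 in J.gamma1, 11397 between the control cells and 4587 for the difference. Pathway genes called higher and lower with the block numbered 11 and 7 in 6T-CEM, 16 and 19 in J.gamma1, 26 and 19 between the control cells, and 6 and 8 for the difference. CYLD and TRADD in 6T-CEM (adjusted p = 0.0513 and 0.0528, edgeR), NFKBIZ in J.gamma1 (0.0665) and PLAU and TAB1 between the control cells (0.0512 and 0.0699) lost their call with the block.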
